A study of Mus musculus with 6 samples.

Results

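The 3' untranslated region (3' UTR) is the stretch of a messenger RNA between the stop codon and the poly(A) tail. Of 6535 transcript rows in the deposited table, 5125 had at least 200 RNA reads in the 3' UTR when the siPKM and siCtrl RNA libraries were added together. Where a symbol had more than 1 row, the row with the most coding reads was used, which left 5123 of 6532 genes as members. The members were thus chosen on their 3' UTR reads in these same libraries, so their read numbers and ratios are given as a description, with no test.

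All libraries came from E14 cells, an established line of mouse embryonic stem cells grown on gelatin in serum medium with LIF. Wild-type E14 cells were transfected with siRNAs against PKM1 and PKM2, the splice forms of the glycolytic enzyme pyruvate kinase M (siPKM), or with a non-targeting siRNA pool (siCtrl), each at 20 nM for 36 h. Both were passaged 16 h before harvest and given cycloheximide, which halts elongating ribosomes, at 100 µg/ml for 2 min. For each siRNA there was 1 RNA library, made from total RNA after removal of rRNA, and 1 library of footprints (RPF), the fragments that ribosomes shield from RNase A and RNase T1. A further 2 libraries were FAST-iCLIP replicates from PKM2_FLAG_HA cells, in which tagged PKM2 was purified through both tags after a UV dose of 0.35 J per cm2 and reverse transcription tends to stop beside a crosslinked base. No CLIP control library was used here, so the stops include background. With 1 library of each kind per siRNA, differences between siPKM and siCtrl have no replicate check and no p-value. In bulk RNA, fewer cells expressing a gene and less RNA per cell cannot be told apart. Whether both CLIP replicates are separate cultures is not given in the labels, so their SD may be technical.

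The 3' UTR is not translated. It carries binding sites for microRNAs and for RNA-binding proteins that set how long a message lasts, where in the cell it goes and how well it is translated. Its length differs between genes, and also within a gene through the choice among cleavage and polyadenylation sites. Because rRNA depletion does not select poly(A) tails, reads of such a library can fall along the whole message. Ribosomes normally leave at the stop codon, so few footprints are found beyond it.

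Members had 9337730 coding (CDS) reads and 4728251 3' UTR reads in siPKM RNA, and 10983618 and 5425995 in siCtrl RNA. The median member had 444 3' UTR reads in siPKM and 490 in siCtrl. Coding reads were counted without the first 15 and last 5 codons. The stem cell label was matched by its markers: 9 of 10 listed markers, all but Nanog, were in the table. Their summed CDS level was 4818 CPM (counts scaled to the same library total) in siPKM and 4942 in siCtrl. Trophoblast markers (3 of 11 present) summed to 83.6 and 77.5 CPM and neural markers (4 of 6) to 150 and 193. Of the primitive endoderm markers only Cubn (1 of 9) was present, at 16.4 and 15.1. Of the fibroblast markers only Vim (1 of 10) was present, at 304 and 229, and 1 gene does not stand for a cell type. Every gene in the table has at least 151 CDS reads in each RNA and RPF library, so a marker outside the table is not shown to be at 0. The part that cells of these kinds have in the results was not tested.

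The 3' UTR reads per CDS read of each member, with 0.5 reads added to both counts, had a median of 0.559 in siPKM and 0.555 in siCtrl. The middle of the distribution was wide, with quartiles of 0.275 and 1.07 in siPKM and 0.274 and 1.05 in siCtrl. More reads lay in the 3' UTR than in the CDS for 1395 members (27.2%) in siPKM and 1392 (27.2%) in siCtrl. At least 4 3' UTR reads per CDS read were found in 108 members in siPKM and 97 in siCtrl, and at most 0.05 in 108 and 101. This is a ratio of counts and not of densities, since lengths of the transcripts counted were not used here, so the order of genes also reflects the lengths of their coding and untranslated parts. The other 1409 genes, kept out by the read minimum, had medians of 0.0912 in siPKM and 0.0905 in siCtrl. Just inside the minimum, at 200 summed reads, were BC055324, Ccbl2 and Cox18, with ratios in siCtrl of 0.0479, 0.234 and 0.275. Just outside, at 199 reads, were Egfl7, Grhpr and Rbm15, with 0.228, 0.218 and 0.0595.

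Ranked by the mean log2 ratio of both libraries, the highest was 1200014J11Rik (Ncbp3, NM_025818), a cap-binding protein gene. It had 360825 3' UTR reads and 1050 CDS reads in siPKM RNA, against 381017 and 1182 in siCtrl RNA. This single row held 7.63% of all 3' UTR reads of the members in siPKM and 7.02% in siCtrl. Its log2 CLIP over RNA was -7.47 ± 0.16 (SD, n = 2), with these 3' UTR reads in the divisor. Set over its siCtrl CDS RNA reads alone, the value was 0.21. Without it the members together had 0.468 3' UTR reads per CDS read in siPKM and 0.459 in siCtrl, and with it 0.506 and 0.494. The counts do not say which RNA within that 3' UTR gave the reads.

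Next came Eif1a (NM_010120), an initiation factor that helps the ribosome find the start codon. It had 5838 3' UTR and 202 CDS reads in siPKM, against 6951 and 350 in siCtrl, which are ratios of 28.8 and 19.8. Rpl41 (NM_018860), one of the smallest proteins of the large ribosomal subunit, had 19003 and 818 in siPKM, against 23766 and 1047 in siCtrl, or ratios of 23.2 and 22.7. Because so short a coding sequence loses most of its codons to the trimming at both ends, its ratio was 4.34 in siPKM and 4.42 in siCtrl when those codons were counted. For Eif1a the ratios with all codons were 26.1 and 18.8.

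Scd2 (NM_009128), a desaturase that puts a double bond into fatty acids, had ratios of 16.9 in siPKM and 16.8 in siCtrl, from 7120 and 7955 3' UTR reads. Its 3' UTR share of CDS plus 3' UTR reads was 94.4% in both libraries (95% Clopper-Pearson intervals 93.9 to 94.9 in siPKM and in siCtrl). The others at the top were Prps1l3 (16.7 and 15.0), a phosphoribosyl pyrophosphate synthetase relative, and Synj2bp (14.1 and 13.1), a protein of the outer mitochondrial membrane. They were followed by Serp1 (13.3 and 11.3), which associates with the translocon of the endoplasmic reticulum (ER), and Cdc42se2 (9.34 and 12.4), an effector of the GTPase Cdc42. The last were B230219D22Rik, with 1815 3' UTR and 184 CDS reads in siPKM against 1905 and 172 in siCtrl, and Ino80d (10.8 and 9.99), a subunit of the INO80 chromatin remodeller. Of these 10 genes, the counting interval of the difference between siPKM and siCtrl left out 0 for Eif1a and Serp1, which were higher in siPKM, and for Cdc42se2, which was lower. Ribosomal proteins, Prps1l3, Ptma, H2afz and Hsp90aa1 have near-identical copies or pseudogenes, and the sources used here do not say how reads with several matches were counted, so their values are uncertain.

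At the other end, coding reads outnumbered 3' UTR reads many times over. Mybbp1a (NM_016776), a nucleolar protein, had 129 3' UTR reads beside 13464 CDS reads in siPKM, against 182 beside 14221 in siCtrl, or 0.00962 and 0.0128 3' UTR reads per CDS read. Cct5, a subunit of the chaperonin that folds actin and tubulin, stood at 0.0108 in siPKM and 0.0135 in siCtrl. The ribosomal proteins Rpl10a (0.0130 and 0.0115), Rpl6 (0.0141 and 0.0185) and Rpl8 (0.0166 and 0.0188) were in the same range. So were Dync1h1 (0.0147 and 0.0156), the heavy chain of the dynein motor, Prpf8 (0.0154 and 0.0193), a core splicing factor, and Msh6 (0.0155 and 0.0169), a DNA mismatch repair protein. From Mybbp1a to 1200014J11Rik the ratio thus covered more than 4 powers of 10 within the same libraries.

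**Figure D1:**
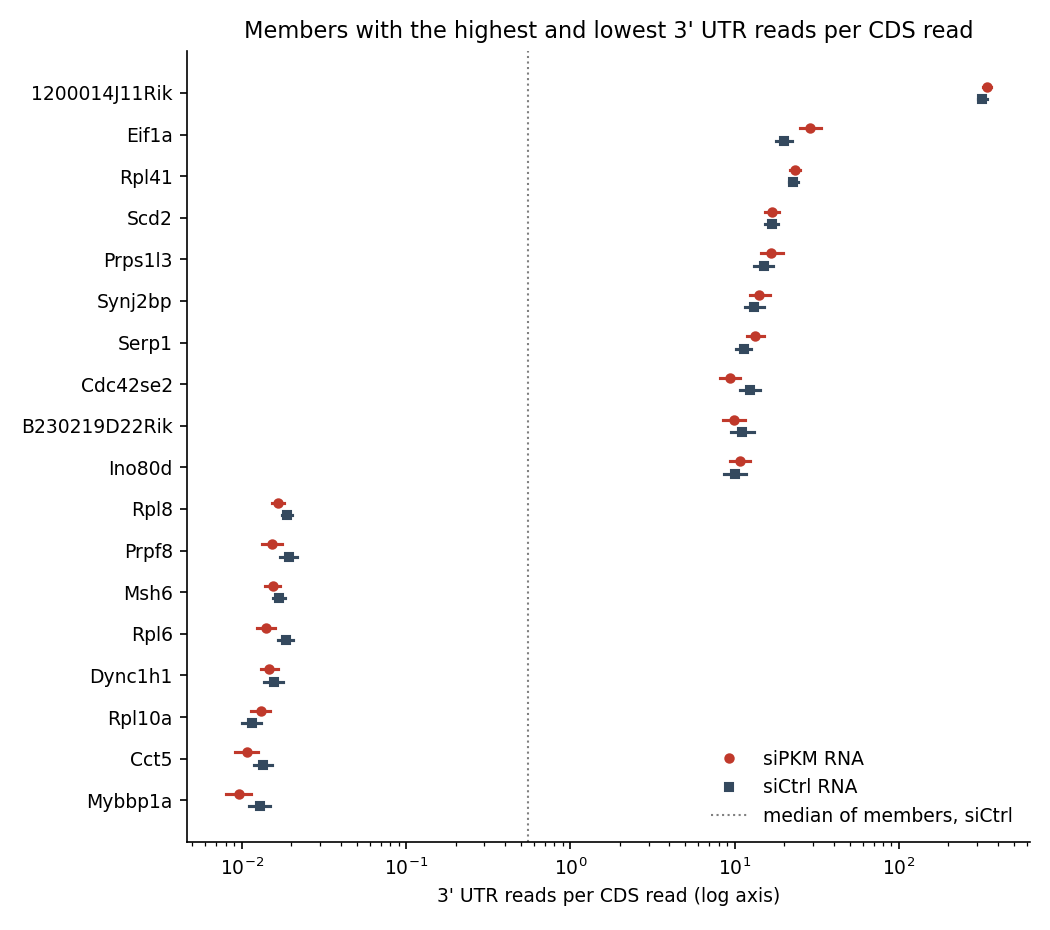
The 10 members with the highest and the 8 with the lowest 3' UTR reads per CDS read (log axis), in siPKM RNA (red circles) and siCtrl RNA (dark squares), with 95% Clopper-Pearson intervals of the read share turned into ratios. The dotted line is the median of all members in siCtrl, 0.555, and 1200014J11Rik stands apart from the rest at 343 in siPKM and 322 in siCtrl.

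After 1200014J11Rik, the most 3' UTR reads belonged to Ptma, the nuclear protein prothymosin alpha, with 39748 in siPKM and 56234 in siCtrl and ratios of 5.13 and 4.83. Besides Rpl41, the list of the most reads held the cytosolic chaperone Hsp90aa1 (19410 and 21961 reads), the splicing factor Srsf1 (17260 and 21215) and the histone variant H2afz (H2az1; 13996 and 18214). Their ratios were 0.282 in siPKM and 0.284 in siCtrl for Hsp90aa1, 4.08 and 3.88 for Srsf1, and 1.23 and 1.28 for H2afz. Many reads in the 3' UTR therefore did not need a high ratio.

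Messages with well-known 3' UTR elements were spread over the range. Lin28a, which encodes an inhibitor of let-7 microRNA maturation and whose own 3' UTR holds let-7 sites, had 7322 3' UTR and 1463 CDS reads in siPKM, against 10026 and 2154 in siCtrl, or ratios of 5.00 and 4.65. Ccnd1, a cyclin of the G1 phase with an AU-rich 3' UTR, stood at 2.41 in siPKM and 2.34 in siCtrl. Tfrc, the transferrin receptor, whose 3' UTR carries iron-responsive elements, had 1.01 and 1.04. Beta-actin (Actb), which carries a localization element there, had 0.808 and 0.827. Trim71, a let-7 target that represses other messages, had 0.436 and 0.467, and Gpx4, a selenoprotein that reduces lipid peroxides, had 0.337 in both libraries. For these 6, the centred difference between siPKM and siCtrl ran from -0.10 (Trim71) to 0.10 (Lin28a) on the log2 scale.

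Gene lists were set side by side by the median ratio of their members. A list is described without a test, and its highest and lowest members are those by the mean log2 ratio of both libraries. Cytosolic ribosomal proteins (70 members of 75 in the table) had a median of 0.0639 in siPKM and 0.0665 in siCtrl, with 60 in the bottom quartile of all members, although Rpl41 was at the top. Proteasome and chaperonin subunits (42 of 44) stood at 0.124 and 0.125, with 34 in the bottom quartile and the testis-type proteasome subunit Psma8 highest at 1.21 and 1.04. The giant cytoskeletal and scaffold proteins (24 of 36) stood at 0.0668 and 0.0629, with 22 in the bottom quartile, from Dync1h1 to the dystrophin relative Utrn at 0.429 and 0.483. The nuclear-encoded respiratory chain with its assembly factors (70 of 82) had 0.328 and 0.322, from Atp5h at 0.0380 and 0.0480 to Cox7a2l at 2.01 and 2.14. This list was taken mostly by the start of the symbol, which also brought in Cox4nb, a gene outside the chain.

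Immediate early and AU-rich messages (15 of 15) had a median of 1.01 in siPKM and 1.10 in siCtrl, with 8 in the top quartile, from the kinase Plk3 at 0.171 and 0.181 to the transcription factor Klf6 at 2.81 and 3.22. Proteins that bind 3' UTRs themselves, the Argonautes included (38 of 39), had 1.03 and 0.945, with 15 in the top quartile, from the fragile X relative Fxr1 at 0.143 and 0.148 to Lin28a. Selenoproteins (9 of 10), which need a hairpin in the 3' UTR to read a UGA codon as selenocysteine, had 1.08 and 1.07, with 5 in the top quartile and 0 in the bottom quartile. Among selenoproteins the highest was 2810407C02Rik (Selenot), an ER protein, at 4.26 and 4.73, and the lowest Gpx1, a glutathione peroxidase, at 0.324 and 0.306. Pluripotency genes (32 of 35) had 0.765 and 0.812, with 13 in the top quartile. The secreted Nodal inhibitor Lefty2 was highest there at 4.52 and 5.68, and the corepressor Trim28 lowest at 0.0514 and 0.0549. Of the core factors, looked up after the list's values were seen, Sox2 stood at 1.51 and 1.62 and Pou5f1 at 0.201 and 0.218.

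Zfp zinc finger proteins (78 of 97) had medians of 0.679 in siPKM and 0.725 in siCtrl, with Zfp740 highest at 8.40 and 8.82 and Zfp646 lowest at 0.0590 and 0.0766. The cleavage and polyadenylation machinery (21 of 23) had 0.629 and 0.621, from the scaffold Wdr33 at 0.0914 and 0.0870 to Cpsf7, a subunit of the cleavage factor that helps choose poly(A) sites, at 3.21 and 2.41. Receptors and adhesion proteins (28 of 39) had 0.620 and 0.627, from the cadherin Fat1 at 0.0361 and 0.0333 to the TGF-beta receptor Tgfbr1 at 3.02 and 3.09. Genes of deadenylation, decapping and decay (38 of 42) had 0.564 and 0.528, from the deadenylase scaffold Cnot1 at 0.0492 and 0.0493 to the decapping enzyme Dcp2 at 4.56 and 4.07.

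Below the median of all members were mitochondrial ribosomal proteins (53 of 69) at 0.435 in siPKM and 0.436 in siCtrl, from Mrps30 at 0.0516 and 0.0569 to Mrpl50 at 2.82 and 2.46, and ER chaperones and folding enzymes (26 of 27) at 0.451 and 0.412, from Pdia3 at 0.0789 and 0.0954 to Txndc12 at 1.64 and 1.28. Glycolytic enzymes with the lactate dehydrogenases (11 of 14) had 0.343 and 0.324, from the phosphofructokinase Pfkl at 0.120 and 0.121 to the hexokinase Hk2 at 0.963 and 0.942. Iron-responsive messages (5 of 7) had 0.339 and 0.303, with the iron sensor Ireb2 highest at 1.64 and 1.73. Secreted and matrix proteins (15 of 28) had 0.285 and 0.296, from the proteoglycan Hspg2 at 0.101 and 0.106 to the growth factor Ctgf (Ccn2) at 1.42 and 1.26. Replication-dependent histones (9 of 16), whose messages end in a stem-loop in place of a poly(A) tail, had 0.255 and 0.240, from the linker histone Hist1h1a at 0.0534 and 0.0556 to Hist1h4h at 3.17 and 3.23. With the codons at both ends counted, Hist1h4h stood at 0.921 and 0.937.

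**Figure D2:**
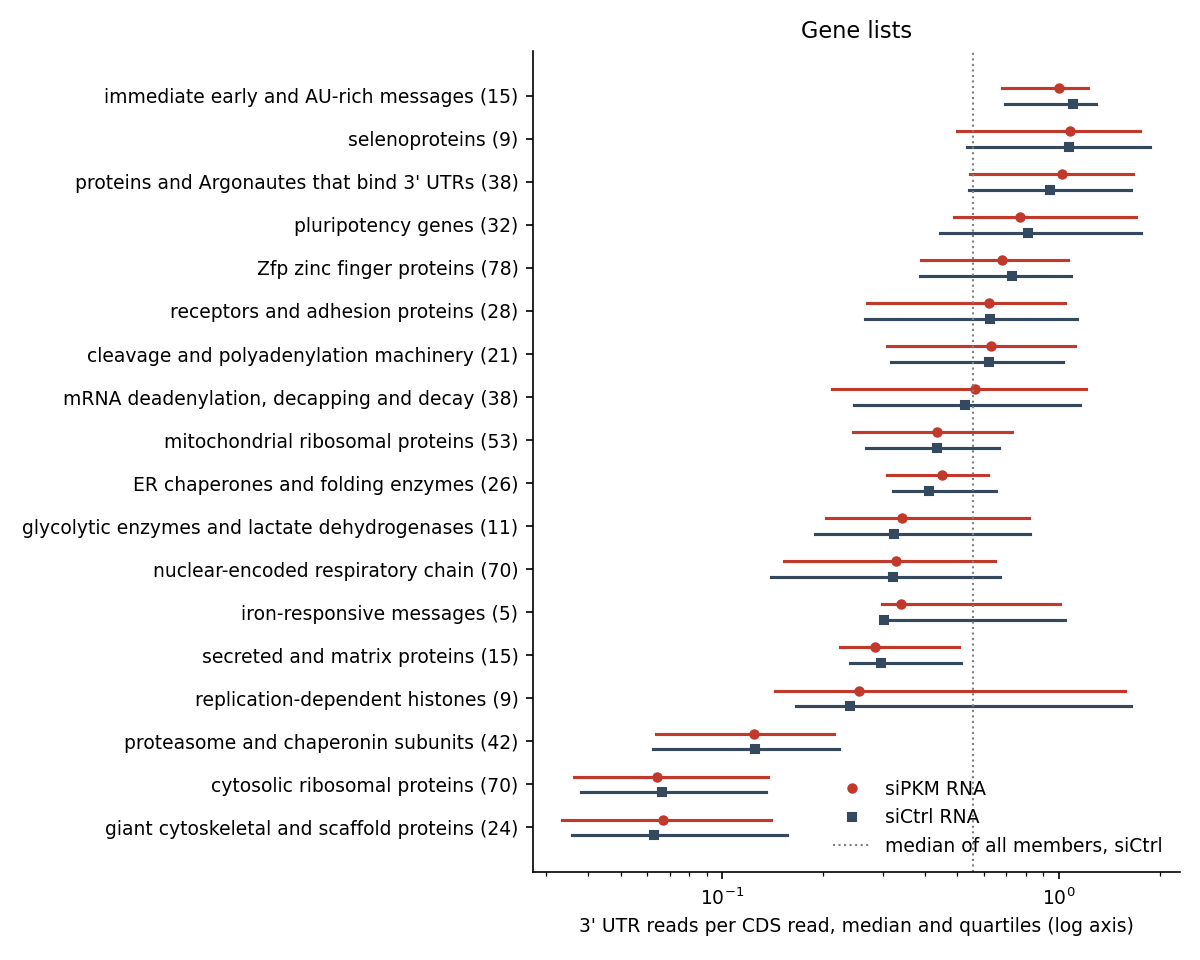
Median 3' UTR reads per CDS read (log axis) of each gene list in siPKM RNA (red circles) and siCtrl RNA (dark squares), with lines from the lower to the upper quartile and the number of members in brackets. The dotted line is the median of all members in siCtrl, 0.555, and the medians of ribosomal, proteasome and giant scaffold messages lie far below it in both libraries.

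The siPKM and siCtrl RNA libraries were then compared gene by gene, to see whether the 3' UTR part of a message differed from its coding part after knockdown. The ratio was nearly the same in both libraries, with a Spearman correlation of 0.989 and a Pearson correlation of 0.990 across the 5123 members, which are genes and not replicates. The difference, siPKM minus siCtrl on the log2 scale, was centred on the median of all genes with a 3' UTR read in both libraries, which removed a shift of 0.0022. Its quartiles over the members were -0.12 and 0.12. Pkm itself (Pkm2 in the table, NM_011099), the targeted gene, had 5609 3' UTR and 16371 CDS reads in siPKM, against 19710 and 60849 in siCtrl. Its log2 siPKM over siCtrl was -1.63 for 3' UTR reads and -1.71 for CDS reads. Both parts of the message were thus lower together in siPKM, with a difference in the ratio of 0.08 (95% counting interval 0.03 to 0.13).

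At least 1.5-fold higher in siPKM were 41 members and 43 were lower, which are 0.800% and 0.839% of the members. Among all 6426 genes with a 3' UTR read in both libraries, 2.94% were that much higher and 3.0% lower, and genes outside the membership have fewer reads. Of the 41, 36 had fewer than 1000 summed 3' UTR reads, as had 41 of the 43. The whole counting interval lay past 1.5-fold for 2 members above and 3 below, against 0.156% and 0.140% of all genes tested.

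**Figure D3:**
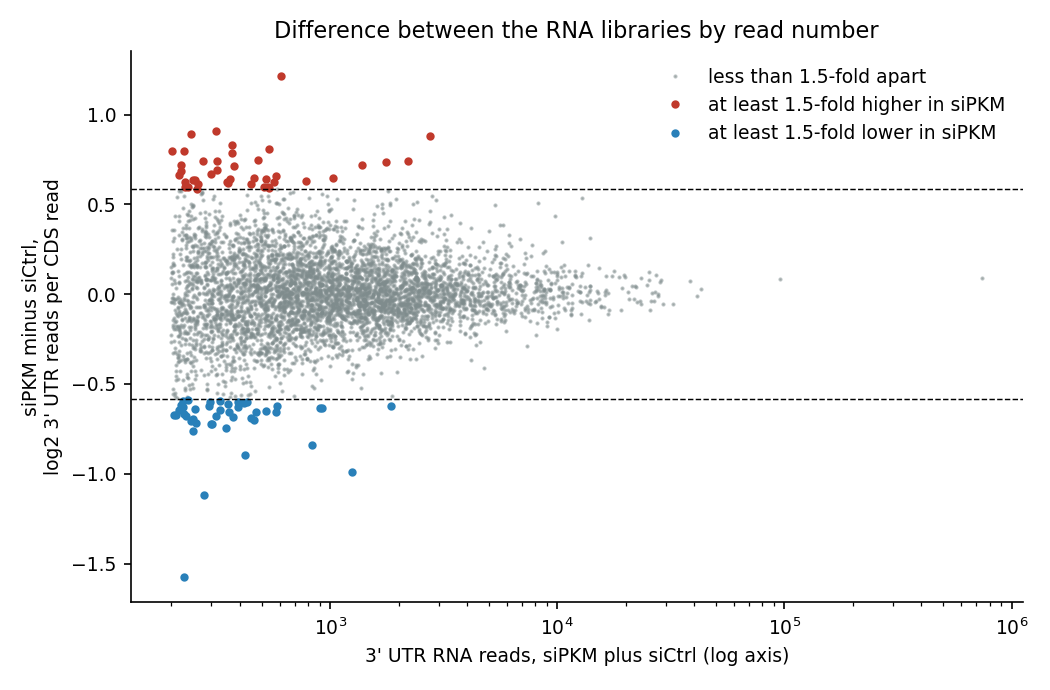
Difference of log2 3' UTR reads per CDS read, siPKM minus siCtrl, for each member by its summed 3' UTR reads (log axis), with dashed lines at 1.5-fold. The 41 members at least 1.5-fold higher (red) and the 43 lower (blue) lie mostly on the left, where reads are few.

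The highest difference was that of Gmps (NM_001033300), the enzyme that makes GMP. Its 3' UTR had 373 reads in siPKM and 234 in siCtrl, while its CDS had 3614 and 5277, a difference of 1.22 (0.97 to 1.46). Hspa4, a nucleotide exchange factor of Hsp70, had 1572 3' UTR reads in siPKM and 1175 in siCtrl beside 16895 and 23309 CDS reads, a difference of 0.88 (0.77 to 0.99). These are the 2 members above whose whole interval lay past 1.5-fold, and in both the 3' UTR reads were higher and the CDS reads lower in siPKM.

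The same split was seen for Arpp19, an inhibitor of the phosphatase PP2A in mitosis, with 1141 3' UTR reads in siPKM and 1063 in siCtrl, beside 815 and 1273 in the CDS (difference 0.74). It was also seen for Syncrip, an RNA-binding hnRNP protein (0.81), and for Ints12, an integrator complex subunit (0.89). In 3 others the CDS values were nearly equal, with log2 siPKM over siCtrl of 0.03 (Ddx49), -0.04 (Opa1) and 0.01 (Tial1), and the 3' UTR reads were higher in siPKM. These were Ddx49, an RNA helicase (difference 0.91), Opa1, which fuses mitochondrial inner membranes (0.72), and Tial1, which binds AU-rich 3' UTRs (0.73). Tial1 had 1051 3' UTR reads in siPKM and 710 in siCtrl, beside 668 and 752 CDS reads.

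The lowest difference was that of Lcmt2 (NM_177846), an enzyme that modifies transfer RNA, with 53 3' UTR reads in siPKM and 175 in siCtrl beside 374 and 412 CDS reads, or -1.58 (-2.06 to -1.09). Churc1, a zinc-binding protein, had 79 and 199 beside 256 and 296, or -1.12 (-1.57 to -0.67). Both are among the 3 members below whose whole interval lay past 1.5-fold, and in both the 3' UTR reads were lower in siPKM. Their CDS stood at log2 siPKM over siCtrl of 0.04 (Lcmt2) and -0.03 (Churc1).

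Also among the 8 lowest were Xpnpep3, a mitochondrial aminopeptidase (-0.89), Dennd5b, an activator of Rab GTPases (-0.84), Cenpf, a kinetochore protein (-0.70), Rpl27 (-0.63) and Ogdh, the oxoglutarate dehydrogenase of the citric acid cycle (-0.62). Rpl27 had 297 3' UTR reads in siPKM and 605 in siCtrl, beside 13480 and 17704 CDS reads. Ogdh had 760 and 1087, beside 1694 and 1577, so its coding reads were higher in siPKM and its 3' UTR reads lower. Of the 2440 members with at least 1000 summed 3' UTR reads, 5 were at least 1.5-fold higher (Hspa4, Arpp19, Tial1, Opa1 and the mitochondrial ribosomal protein Mrps23) and 2 lower, among them Ogdh. That set was singled out after its values were seen.

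**Figure D4:**
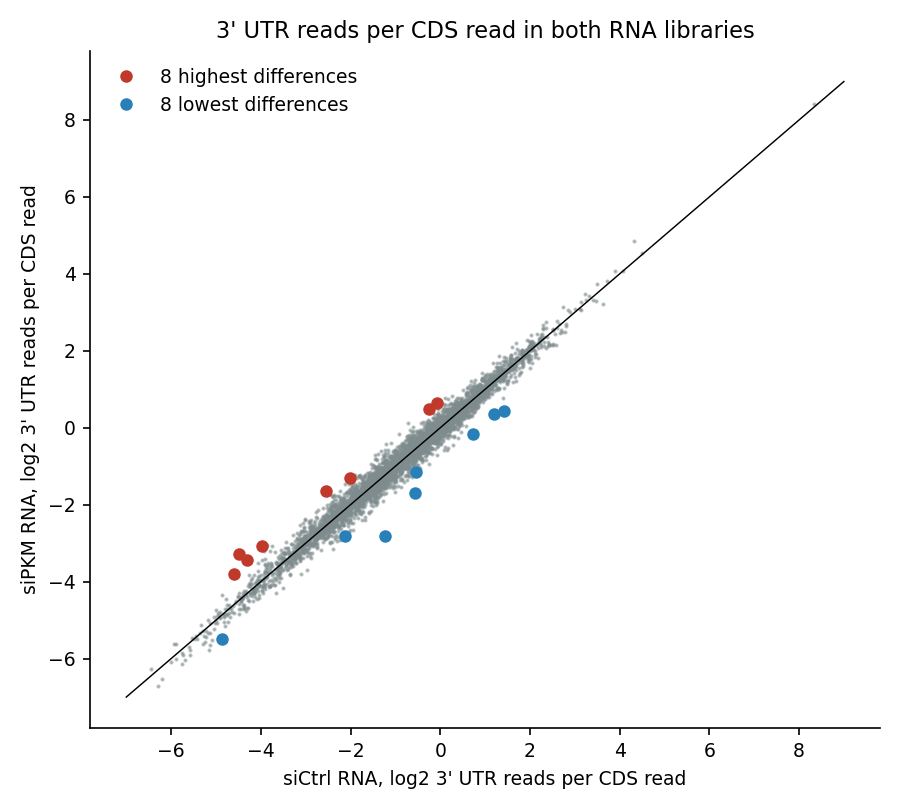
Log2 3' UTR reads per CDS read of each member in siPKM RNA (vertical axis) against siCtrl RNA (horizontal axis), with the line of equal values. The members follow the line (Spearman 0.989), and the 8 highest (red) and 8 lowest (blue) differences by the nearest bound of the counting interval stand off it.

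By list, the difference was small. List medians ran from -0.08 for immediate early and AU-rich messages to 0.06 for glycolytic enzymes, beside 0.00 for all members. Of 18 lists, 6 held a member at least 1.5-fold apart, beside 0.800% higher and 0.839% lower over all members, and nothing is read from counts this small. They were mitochondrial ribosomal proteins, with 3 of 53 higher (Mrps23 the most at 0.64) and 1 lower (Mrpl54 at -0.65), cytosolic ribosomal proteins with Rpl27 lower, and zinc finger proteins with Zfp64 lower at -0.76. The cleavage and polyadenylation list had Fip1l1, which recruits poly(A) polymerase, higher at 0.60 (0.32 to 0.87), with 284 3' UTR reads in siPKM and 248 in siCtrl beside 888 and 1174 CDS reads. The 3' UTR-binding list had Tial1 higher and Khsrp, an AU-rich element binding protein, at -0.38. The pluripotency list had the transcription factor Prdm14 higher at 0.64 (0.18 to 1.09), from 152 and 97 3' UTR reads. Rpl15 was short of 1.5-fold at 0.51 but rested on 4250 3' UTR reads in siPKM and 3961 in siCtrl, with an interval of 0.44 to 0.57.

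Baseline translation efficiency (TE) was taken as the log2 of siCtrl RPF CPM over siCtrl RNA CPM in the CDS, so 0 means footprints in proportion to message over the table. It was slightly higher where the siCtrl 3' UTR ratio was higher. Median log2 TE was -0.26, -0.22, -0.15 and -0.04 from the bottom to the top quartile of the siCtrl ratio, with a wide spread inside each, from -0.70 to 0.14 between the 25th and 75th percentiles at the bottom and from -0.49 to 0.43 at the top. TE of at least 2-fold above proportion was found for 114 of 1281 members in the top quartile and 59 of 1281 in the bottom quartile, and at least 2-fold below for 114 and 188. These are 8.90% and 4.61% above and 8.90% and 14.7% below. Over all members the shares were 7.09% above and 12.9% below, and over the other genes 7.81% and 10.6%. The Spearman correlation across the 5123 members was 0.13 and the Pearson correlation 0.14. TE and the ratio share the siCtrl RNA CDS reads as their divisor. With the ratio taken from siPKM RNA the Spearman correlation was also 0.13, and with both from siPKM it was 0.14. The ratios of both libraries correlated at 0.989, so this exchange removes only shared counting error. With footprints set over 3' UTR RNA reads, where the ratio's own numerator is the divisor, the Spearman correlation was -0.84. The sign thus depended on the divisor, and the 0.13 is a description and no more.

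Messages with many 3' UTR reads per CDS read could lie at either end of TE. Highest in the top quartile was Myadm, a membrane protein, at 3.70, followed by the ubiquitin receptor Ubqln2 at 3.55, the RNA-binding protein Hnrnpa3 at 3.17, Pom121, of the nuclear pore, at 2.92 and midnolin (Midn) at 2.88. Their siCtrl CDS RNA reads, the divisor, were few for Myadm (164), Pom121 (181), Ubqln2 (228) and Midn (318), where the table's minimum is 151. Hnrnpa3 had 2225. Lowest were Rpl41 at -2.67, the RNA-decay factor Rc3h2 at -2.65, Atxn7l3, a subunit of a histone deubiquitinase module, at -2.47, cyclin G1 (Ccng1) at -2.39 and the phosphatase Ptp4a2 at -2.35. For Rpl41 this rests on the few codons left after trimming, with 206 footprints and 1047 of 5382 coding RNA reads in siCtrl. Its value therefore does not give the TE of the whole coding sequence. Ccng1 had 3067 3' UTR reads in siPKM and 4547 in siCtrl, with ratios of 1.76 and 1.79, and Hnrnpa3 had 4023 and 4407, with 2.01 and 1.98. Ratios this alike thus went with TE values more than 5 log2 units apart. Among lists, the median TE of members was lowest for selenoproteins at -0.88 and highest for secreted and matrix proteins at 1.11, with -0.17 over all members.

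For PKM2 binding, CLIP over RNA sets the stops of a transcript, in CPM and averaged over both replicates, against its siCtrl RNA in CPM, whole transcript over whole transcript, on the log2 scale. Stops are per whole transcript, so the values do not say whether PKM2 met the 3' UTR or the CDS. Its median was -0.55, -0.03, 0.21 and 0.47 from the bottom to the top quartile of the siCtrl ratio, higher at each step. In replicate 1 the medians were -0.51, -0.00, 0.21 and 0.43, and in replicate 2 -0.57, -0.00, 0.25 and 0.48. The top quartile stood 1.02 above the bottom quartile, and by single replicates 0.94 and 1.05. At least 4-fold above proportion were 141 members of the top quartile and 58 of the bottom quartile, and at least 4-fold below were 76 and 155. These are 11.01% and 4.53% above and 5.93% and 12.1% below. Over all members the shares were 7.94% above and 7.03% below, and over the other genes 13.1% and 2.48%. The other genes had a lower median siCtrl ratio, 0.0905, so their shares ran against the rise seen among the members. The Spearman correlation across members was 0.28 and the Pearson correlation 0.27, against 0.16 and 0.12 over all 6532 genes. With stops set over 3' UTR RNA reads, the ratio's own numerator, the Spearman correlation across members was -0.36. With stops set over CDS RNA reads, the ratio's own divisor, it was 0.55. The shared reads push these values down and up by construction. The sign thus depended on the divisor, and the 0.28 is a description and no more.

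RNA level moved with both measures. The median siCtrl CDS level was 173, 79.7, 58.8 and 42.1 CPM from the bottom to the top quartile. CDS level had a Spearman correlation of -0.52 with the ratio and -0.44 with CLIP over RNA. CDS reads are also the divisor of the ratio, and the read minimum admits genes with few CDS reads only where the ratio is high. Of the members in the lowest tertile by CDS level, 732 were in the top quartile of the ratio and 81 in the bottom quartile. How much of the -0.52 comes from the divisor and the read minimum was not tested. Within the lowest, middle and highest tertile of members by CDS level, the correlation of the ratio with CLIP over RNA was 0.08, 0.07 and 0.18, against 0.28 over all members. Median CLIP over RNA in the top and bottom quartiles was 0.82 and 0.40 among the members with least coding RNA, 0.27 and -0.01 in the middle tertile, and -0.25 and -0.89 among those with most. Other genes, with a median of 36.7 CPM, had a median CLIP over RNA of 0.33, against 0.02 for the members. The measures also share RNA reads as divisors.

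**Figure D5:**
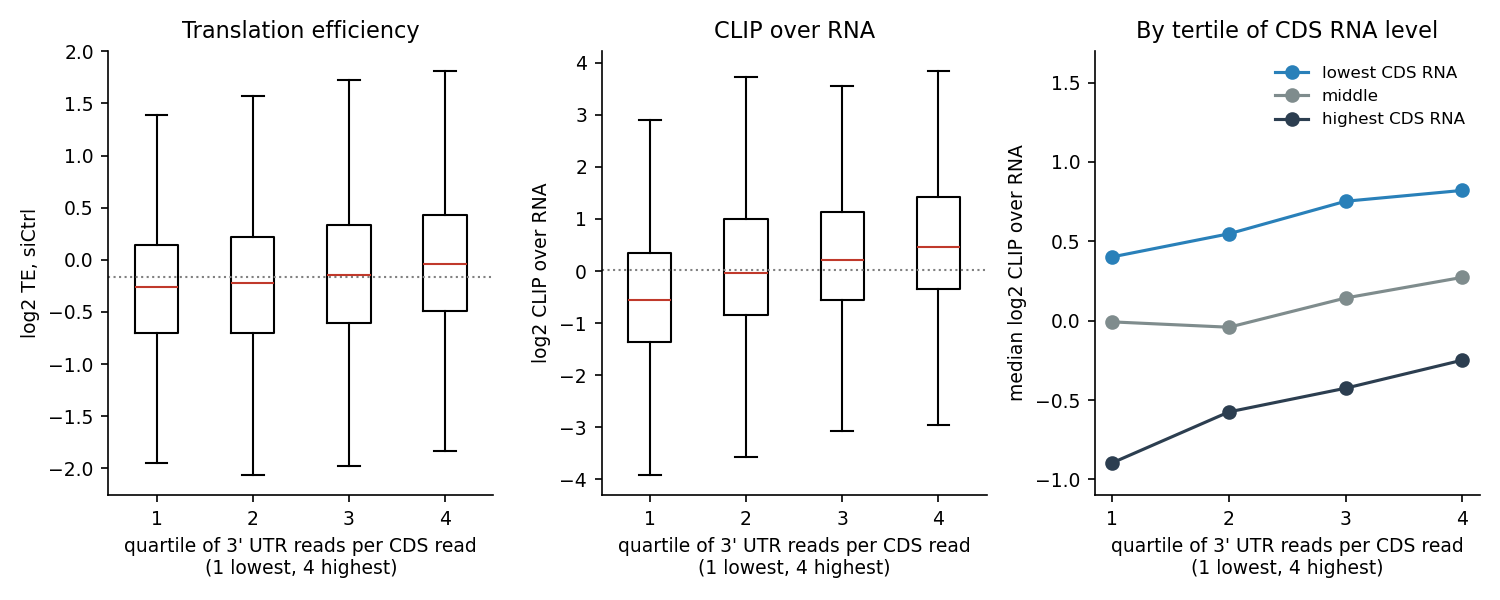
Log2 TE in siCtrl (left) and log2 CLIP over RNA (middle) by quartile of 3' UTR reads per CDS read in siCtrl, as medians (red), quartiles (boxes) and whiskers to the last value within 1.5 box lengths, with dotted lines at the median of all members. On the right, median CLIP over RNA by quartile is drawn for each tertile of members by CDS RNA level, where the tertile with least RNA stays highest, at 0.40 to 0.82.

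The highest CLIP over RNA in the top quartile was that of Myadm, at 5.50 ± 0.10 (SD, n = 2), with 519 3' UTR and 199 CDS reads in siPKM RNA, against 412 and 164 in siCtrl RNA. Pom121 followed at 4.57 ± 0.03, the glutamate receptor Grik3 at 4.30 ± 0.13, the chromatin protein Ubn2 at 3.84 ± 0.06 and the sodium pump subunit Atp1b1 at 3.59 ± 0.15. Myadm and Pom121 were also among the highest in TE, and both measures have siCtrl RNA reads of the gene as divisor. The bottom quartile held values nearly as high, with Hspg2 at 4.22 ± 0.12, the sterol regulator Srebf2 at 3.77 ± 0.03, the DNA polymerase subunit Rev3l at 3.59 ± 0.25, Zbed6 at 3.53 ± 0.27 and the splicing protein Srrm2 at 3.49 ± 0.27. Hspg2 and Srrm2 had 0.106 and 0.0577 3' UTR reads per CDS read in siCtrl. High ratios also went with low CLIP over RNA, in Rpl41 at -5.78 ± 0.25 and H2afz at -6.38 ± 1.05. These rest on few stops, 18 and 23 in replicates 1 and 2 for Rpl41 and 8 and 23 for H2afz. For H2afz the replicates gave -7.31 and -5.83. Both genes are among those with near-identical copies or pseudogenes, so their values are uncertain. A CLIP count of 0, found for 10 members in replicate 1 and 16 in replicate 2, allows up to 4.43 and 4.47 CPM, taking 3 counts as the limit.

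Lists with similar ratios differed in CLIP over RNA. Giant scaffold proteins and cytosolic ribosomal proteins had median siCtrl ratios of 0.0629 and 0.0665, with median CLIP over RNA of 1.03 and -4.79. Secreted and matrix proteins and the respiratory chain had ratios of 0.296 and 0.322 and CLIP over RNA of 2.48 and -1.16. Proteins that bind 3' UTRs stood at 1.12, ER chaperones at 1.17, receptors and adhesion proteins at 2.14 and selenoproteins at -0.53, against 0.02 for all members.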

How the data were processed

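RNA and RPF libraries were deposited by the authors as raw read counts per transcript region, and CLIP libraries as the raw count of stops on each mature transcript, per the file headers. Deposited log2 TE and log2 CLIP values of the authors served only as alternatives. Reads were processed with cutadapt and Bowtie2 on mm9, per the submitters' processing notes; the sources used here do not give versions, counting, strand or multi-match handling, so overlapping antisense genes cannot be told apart. Columns KD and Ribo were read as siPKM and RPF. The authors' log2 RPM values were not used, and 3 further columns were given no sample or measure.

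Here, ratios took 0.5 added reads; Python 3.11.15, pandas 2.3.3, numpy 2.4.6 and scipy 1.17.1 were used, and the ratio step was tested on simulated data. Intervals (95%) cover only counting error, and PCR copies cannot be told from separate molecules in these counts. Named genes were the 10 highest and 8 lowest ratios, 6 with most reads, 8 highest and 8 lowest differences by nearest interval bound, extremes of TE and CLIP by quartile of the ratio, list extremes and known elements. Of the members, 5080 matched a RefSeq accession of assembly GRCm38.p6, used for names only. Some genes that this rule names are not reported here. Members and lists were chosen with earlier results of these data known. Sequences of the 3' UTRs are not shown, since no genome of the files' build was used here. Alternatives covered the added reads, read minimum, codons, centring, divisors, CLIP replicates and RNA level.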

Additional observations from a re-analysis of the deposited data

Results flagged for a closer look

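Footprints in the 3' UTR enter no comparison of the main results and are given here as a signal outside the RNA measurement. Over the members, 26824 footprints lay in 3' UTRs in siPKM RPF, or 0.235% of 3' UTR plus CDS footprints, and 34954 in siCtrl RPF, or 0.253%. In the same genes 33.6% of such RNA reads lay in the 3' UTR in siPKM and 33.1% in siCtrl. Of the footprints counted in 3' UTRs, 5455 in siPKM and 6538 in siCtrl belonged to the row named mt-Nd4, whose identity is uncertain.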

How the results depend on the processing

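Counts of members at least 1.5-fold apart changed with the read minimum, which also changes how many genes are counted. With a minimum of 100 reads, 88 of 5807 genes were higher and 83 lower in siPKM. With 400 it was 17 and 14 of 4184, with 1000 it was 5 and 2 of 2440, with no minimum 189 and 193 of 6426, and with the whole counting interval past 1.5-fold 2 and 3. Both counts stayed within 1.5 times the reported 41 and 43 with 0 or 5 added reads, all codons or no centring. The median log2 ratio in siPKM and siCtrl was -0.83 and -0.84 with 5 added reads, -0.93 and -0.91 with all codons, -1.07 and -1.07 at 100 reads, -0.58 and -0.59 at 400, -0.22 and -0.24 at 1000, and -1.29 and -1.29 with no minimum, against the reported -0.84 and -0.85. The Spearman correlation with TE was 0.12 at 100 reads, 0.12 at 400 and 0.0969 at 1000, 0.14 with ratio and TE from siPKM, and 0.143, 0.0709 and 0.139 by rising tertile of RNA level. It was -0.84 with footprints over 3' UTR RNA reads, where the ratio's own numerator is the divisor. The correlation with CLIP over RNA was 0.23 at 100 reads, 0.31 at 400 and 0.34 at 1000, and 0.0824, 0.0745 and 0.177 by tertile of RNA level. It was 0.55 over CDS reads, the ratio's own divisor, and -0.36 over 3' UTR reads, the ratio's own numerator. Its sign thus depends on which RNA reads stand below the stops, and the shared reads push these values up and down by construction. Leaving out 1 CLIP replicate gave 0.26 to 0.28, and a gap between top and bottom quartiles of 0.94 to 1.05. Without cytosolic ribosomal proteins, chosen after seeing the data, it was 0.26. Between the top and bottom decile the gap was 0.30 in TE and 1.45 in CLIP over RNA, against 0.22 and 1.02 between quartiles. Splits by protein length were not run, as no lengths were used here. No paired analysis was possible because each siRNA group had 1 library of a kind.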

Other observations

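Of the 5123 members, 3351 had a 3' UTR footprint in both RPF libraries, 472 had none in either, and 50 had at least 100 summed. Among those 50, the share of 3' UTR plus CDS footprints that lay in the 3' UTR was highest for mt-Nd4, a mitochondrially encoded subunit of complex I, at 79.2% (95% Clopper-Pearson interval 78.2 to 80.1) in siPKM and 74.4% (73.4 to 75.3) in siCtrl. That row is described in the table as chain 4L, so its identity is uncertain. Whether its 5455 footprints in siPKM and 6538 in siCtrl lie outside a coding sequence was not tested. Dennd5b, also among the lowest differences in RNA, had 209 3' UTR footprints beside 199 in the CDS in siPKM, against 219 beside 214 in siCtrl. Rpl41 stood at 34.8% in siPKM and 47.3% in siCtrl. CDS footprints leave out the codons at both ends, which can only raise the share, and a short coding sequence loses most of its codons. For Rpl41 the trimmed CDS held 202 footprints in siPKM and 206 in siCtrl. In siCtrl RNA it held 1047 of 5382 coding reads. Its share over the whole coding sequence was not tested. The zinc finger protein Zfp459 stood at 34.6% and 39.4%, and the RNase P subunit Rpp14 at 33.2% and 29.1%. The corepressor Tle3 stood at 29.3% and 29.0%. Tle3 had 377 3' UTR footprints beside 359 3' UTR RNA reads in siPKM, against 376 beside 349 in siCtrl. Tomm5, of the mitochondrial import pore, had 28.8% and 27.6%, and Atpaf1, an assembly factor of ATP synthase, 25.7% and 26.0%. These genes were picked by their footprint share after the values were seen, and whether the footprints come from ribosomes was not tested.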
